A study of Saccharomyces cerevisiae with 2 samples.

Results

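The glyoxylate, gluconeogenesis and carboxylate uptake genes are 10 genes of Saccharomyces cerevisiae, taken by name from the 6716 genes of each deposited table. They are PCK1, FBP1, ICL1, MLS1, MDH2, CIT2, SFC1, IDP2, JEN1 and ADY2, and all 10 were found in both libraries. The study compared 1 library of the rice wine strain YHJ7, which the sample labels call YHJ8 and give as wild type, with 1 library of the laboratory strain BY4741, which is MATa and carries his△1, leu2△0, lys2△0 and ura3△0 according to the labels. YHJ7 is haploid and descends from a Huangjiu (rice wine) yeast, and BY4741 derives from the reference strain S288c. Both strains grew in YPD, a rich glucose medium, from an OD600 of 0.05 and were harvested at early stationary phase. Each library pooled 2 biological replicates of poly(A) RNA, so replicate error is unknown and no test between the strains was run here. The paper did report such a test on these libraries. Its printed list of significant genes, which leaves out dubious genes and those without functional annotation, holds none of the 10.

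When glucose runs out, yeast grows on the ethanol and acetate it has released. The glyoxylate cycle then joins acetyl-CoA units into malate and succinate without losing carbon as CO2, and gluconeogenesis turns the resulting oxaloacetate into sugar phosphates. Genes of both pathways are known as repressed by glucose and as activated through the kinase Snf1 and the zinc cluster factors Cat8 and Sip4, which bind a promoter element called the carbon source-responsive element (CSRE). The enzymes Fbp1, Icl1, Mdh2 and Pck1 are also known to be degraded through the GID ubiquitin ligase when glucose returns.

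The libraries held 10218938 fragments of BY4741 and 8168515 of YHJ7 on genes, and the 10 genes took 5.74% and 3.37% of them. In each per-library table the column headings name the other strain than the sample it belongs to, and the headings were followed. The headings call the rice wine sample DY1, its title, and DY1 is taken here as YHJ7. LEU2, MET17 and URA3 had 0 fragments in the library headed BY4741 and 473, 240 and 768 in the library headed DY1. HIS3 had 548 fragments and LYS2 1348 in the library headed BY4741, so a loss of these transcripts is not shown. The lys2△0 of the labels is thus not borne out by the counts. MET17 had 0 fragments there although the genotype in the labels does not list it. AAD10, an aryl-alcohol dehydrogenase gene that the study's genome comparison lists as deleted in YHJ7, is a further check of the headings. Its level was 154 FPKM in the library headed BY4741 and 0.82 in the library headed DY1. LEU2, URA3 and AAD10 thus run the way the headings say, and reversing the assignment would reverse every direction given here.

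The promoters of these genes are shown first, because they hold the element through which genes of both pathways are known to be activated. Known targets of that element are among the 10 genes, so its frequency here describes the list and is no independent result. The core of the CSRE was searched as CC, 2 bases of any kind, T, 3 bases of any kind and CCG, on both strands and with overlapping matches counted, in the 600 bases before the start codon in the S288c reference (RefSeq, assembly R64, which corresponds to sacCer3). It was present 15 times before 7 of the 10 genes, namely PCK1, ICL1, MLS1, MDH2, SFC1, IDP2 and ADY2. Of 5999 protein-coding genes with a window of this length, 8.73% had a match. All 15 matches lay outside annotated genes. The match nearest to each start codon is printed below with 10 bases on either side, on the strand of the gene, with the match in capitals. In PCK1 and ADY2 this match reads on the opposite strand, so the capitals show its reverse complement.
PCK1, chrXI:630780-630810: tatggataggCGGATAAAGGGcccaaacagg
ICL1, chrV:287292-287322: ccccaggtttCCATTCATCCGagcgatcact
MLS1, chrXIV:405890-405920: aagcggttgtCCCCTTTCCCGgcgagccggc
MDH2, chrXV:83277-83307: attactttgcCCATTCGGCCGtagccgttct
SFC1, chrX:609272-609302: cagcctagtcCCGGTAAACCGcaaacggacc
IDP2, chrXII:504278-504308: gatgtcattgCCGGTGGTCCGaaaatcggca
ADY2, chrIII:133583-133613: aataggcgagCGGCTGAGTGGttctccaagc

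The capitals begin 362 bases before the start codon in PCK1, 398 in ICL1, 458 in MLS1, 377 in MDH2, 491 in SFC1, 303 in IDP2 and 479 in ADY2. FBP1, CIT2 and JEN1 had no match to these letters in the window. The binding core of the repressor Mig1, searched as CCCCAC or CCCCGC on both strands, was found once each before FBP1, IDP2 and ADY2, against 16.5% of all windows. The FBP1 match is shown because this gene had no CSRE core, and its capitals begin 198 bases before the start codon.
FBP1, chrXII:874975-875000: gtggcatcttCCCCACactatattat

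The R box, GTCAC, is bound by the retrograde factors Rtg1 and Rtg3, which are known to activate CIT2. It was found on either strand before 6 of the 10 genes, where 49.2% of all windows had it, with 3 matches each before CIT2 and IDP2. All 3 before IDP2 lay within the neighbouring gene TAG1. Of the 3 matches before CIT2, 2 lay within the annotated open reading frame YCR006C, whose nearer end is 201 bases upstream of CIT2. A match describes the reference sequence only, and the sequence of YHJ7 was not used.

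The 10 genes were strongly expressed in both strains. Expression is given as FPKM, the number of fragments of a gene divided by its exon length and by the size of the library, so that levels of different genes can be compared. FPKM ranged from 1095 for SFC1 to 8948 for PCK1 in BY4741, and from 417 for SFC1 to 7301 for PCK1 in YHJ7. PCK1 had more fragments than any other gene of the BY4741 library, but by FPKM it ranked 33 there and 44 in YHJ7. The 10 genes together reached 36216 FPKM in BY4741 and 26182 FPKM in YHJ7, a ratio of 0.723. The sum was 1.79% of the FPKM of all genes in BY4741 and 1.11% in YHJ7. In the lists that follow, lower and higher refer to the YHJ7 library relative to BY4741, and intervals in parentheses are 95% counting intervals, which do not cover differences between cultures.

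**Figure D1:**
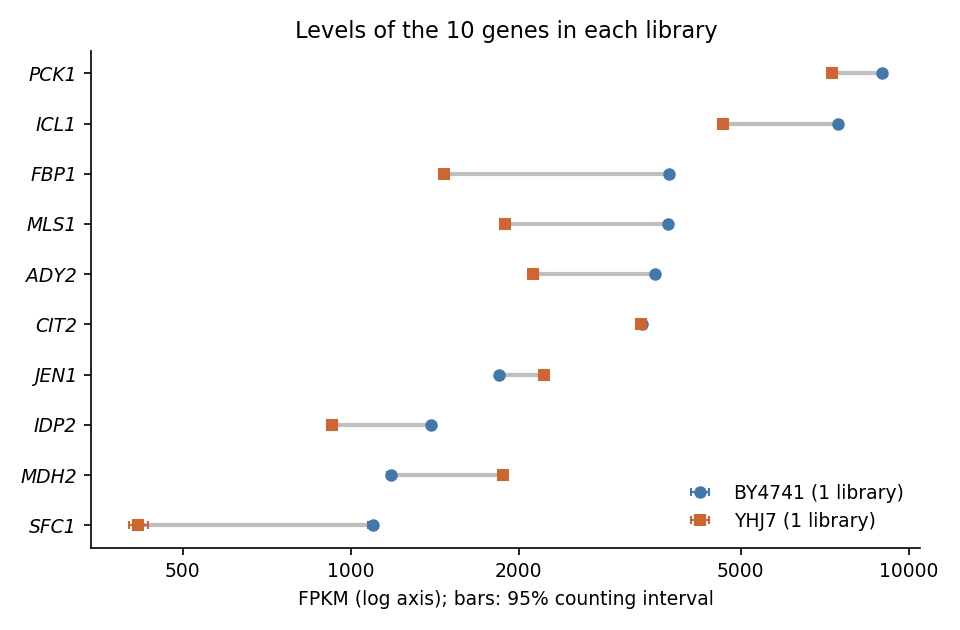
FPKM (log axis) of the 10 genes in the BY4741 library (circles) and the YHJ7 library (squares), with 95% counting intervals that are mostly narrower than the symbols. PCK1 and ICL1 are the highest genes in both libraries, and FBP1 and SFC1 show the widest gaps, from 3724 to 1472 and from 1095 to 417.

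Of the 10 genes, 8 were lower in YHJ7 and 2 were higher, where 3307 of all 6716 genes were lower and 3329 higher. CIT2, 1 of the 8, did not differ beyond counting error on the deposited scale. The others differed beyond counting error, which is small for genes with this many fragments. FBP1 and SFC1 were at least 2-fold lower, which is 2 of 10 genes, where 9.84% of all genes were at least 2-fold lower. None of the 10 was at least 2-fold higher, where 12.4% of all genes were. At 4-fold none was higher or lower, where 2.74% of all genes were higher and 3.75% lower. These folds were read on the log2(FPKM + 1) scale, which understates the change of low genes but hardly that of genes this high. The median difference of the 10 genes, YHJ7 minus BY4741, was -0.64 on this scale, and that of all genes was 0. Among the 438 genes whose mean FPKM was at least that of SFC1, the lowest of the 10, the median difference was 0.41, and 7.08% were at least 2-fold lower and 24.7% at least 2-fold higher. That filter was chosen after the values were seen. No difference here was checked in a second library of either strain.

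The gluconeogenic enzyme genes differed unequally. PCK1 (YKR097W, chromosome XI, 631152 to 632801) encodes phosphoenolpyruvate carboxykinase, which makes phosphoenolpyruvate from oxaloacetate and opens gluconeogenesis. Its level was 8948 FPKM in BY4741 and 7301 FPKM in YHJ7, from 168082 and 87224 fragments. The YHJ7 value was 1.23-fold lower (1.22 to 1.24), and PCK1 was the highest of the 10 genes in both libraries. FBP1 (YLR377C, chromosome XII, 873746 to 874792) encodes fructose-1,6-bisphosphatase, the step that glycolytic phosphofructokinase cannot reverse. Its level was 3724 FPKM in BY4741 and 1472 FPKM in YHJ7, from 40836 and 10264 fragments. FBP1 was thus 2.53-fold lower (2.48 to 2.59), and it moved from the third place among the 10 genes in BY4741 to the eighth in YHJ7. PCK1 exceeded FBP1 2.40-fold in BY4741 and 4.96-fold in YHJ7, a ratio within each library that no scaling changes.

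The enzymes of the glyoxylate cycle did not share one direction. ICL1 (YER065C, chromosome V, 285241 to 286914) encodes isocitrate lyase, which splits isocitrate into glyoxylate and succinate. Its level was 7479 FPKM in BY4741 and 4644 FPKM in YHJ7, 1.61-fold lower (1.60 to 1.63). MLS1 (YNL117W, chromosome XIV, 406358 to 408022) encodes malate synthase, which condenses glyoxylate with acetyl-CoA. Its level was 3706 FPKM in BY4741 and 1890 FPKM in YHJ7, from 70340 and 22818 fragments. MLS1 was 1.96-fold lower (1.93 to 1.99), just short of 2-fold. Both enzymes that are particular to the glyoxylate cycle were therefore lower in the YHJ7 library.

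MDH2 (YOL126C, chromosome XV, 81787 to 82920) encodes the cytosolic malate dehydrogenase, which supplies oxaloacetate to Pck1. Its level was 1183 FPKM in BY4741 and 1876 FPKM in YHJ7, from 14308 and 14425 fragments. MDH2 was 1.59-fold higher (1.55 to 1.62), the largest difference in favour of YHJ7 among the 10 genes. CIT2 (YCR005C, chromosome III, 120946 to 122328) encodes the peroxisomal citrate synthase, which adds acetyl-CoA to oxaloacetate. Its level was 3327 FPKM in BY4741 and 3310 FPKM in YHJ7, a ratio of 0.995 with a counting interval from 0.981 to 1.01. CIT2 did not differ beyond counting error, and it was the sixth gene in BY4741 and the third in YHJ7.

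IDP2 (YLR174W, chromosome XII, 504591 to 505829) encodes the cytosolic isocitrate dehydrogenase, a source of NADPH during growth without fermentable sugar. Its level was 1394 FPKM in BY4741 and 926 FPKM in YHJ7, from 18762 and 7925 fragments, 1.51-fold lower (1.47 to 1.55). IDP2 was the eighth of the 10 genes in BY4741 and the ninth in YHJ7.

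The transport genes also went both ways. SFC1 (YJR095W, chromosome X, 609773 to 610741) encodes the mitochondrial carrier that exchanges succinate from the glyoxylate cycle for fumarate. Its level was 1095 FPKM in BY4741 and 417 FPKM in YHJ7, from 10896 and 2637 fragments. SFC1 was 2.63-fold lower (2.52 to 2.74), the largest difference of the 10 genes, and it was the lowest of them in both libraries. JEN1 (YKL217W, chromosome XI, 22234 to 24084) encodes the plasma membrane permease for lactate and pyruvate. Its level was 1848 FPKM in BY4741 and 2221 FPKM in YHJ7, 1.20-fold higher (1.18 to 1.22). ADY2 (YCR010C, chromosome III, 132273 to 133124), also called ATO1, encodes the acetate permease. Its level was 3512 FPKM in BY4741 and 2126 FPKM in YHJ7, 1.65-fold lower (1.62 to 1.69). The permease for lactate thus stood above its BY4741 level and the permease for acetate below it.

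Summed by role, the YHJ7 to BY4741 ratio of FPKM was 0.692 for both gluconeogenic enzymes, 0.747 for the 4 glyoxylate cycle enzymes and 0.738 for the 3 transport genes. IDP2 alone had a ratio of 0.664, and the ratios of the single genes ran from 0.381 to 1.59. Within a library, neighbours in the order of FPKM had separate counting intervals, except FBP1 and MLS1 in BY4741, at 3724 and 3706, and MLS1 and MDH2 in YHJ7, at 1890 and 1876. The order in BY4741 was PCK1, ICL1, FBP1, MLS1, ADY2, CIT2, JEN1, IDP2, MDH2 and SFC1. In YHJ7 it was PCK1, ICL1, CIT2, JEN1, ADY2, MLS1, MDH2, FBP1, IDP2 and SFC1. No other gene of the tables overlaps any of the 10 loci, so no annotated gene on the other strand shares their coding positions.

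**Figure D2:**
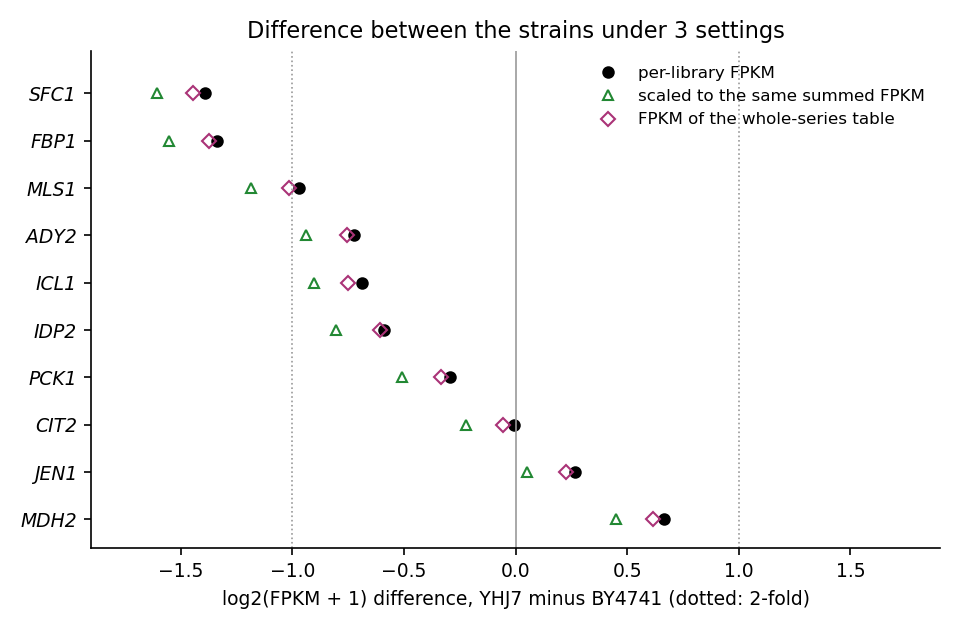
Difference in log2(FPKM + 1), YHJ7 minus BY4741, for each of the 10 genes from the per-library FPKM (filled circles), after scaling to the same summed FPKM (triangles) and from the authors' table of the whole series (diamonds). SFC1 and FBP1 lie beyond the dotted 2-fold line on the left under all 3 settings, MLS1 crosses it under 2 of them, and MDH2 and JEN1 stay to the right of 0.

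The scale between the libraries matters for genes near 0. Scaling both libraries to the same summed FPKM lowered every difference by about 0.21 on the log2 scale. JEN1 then stood at 0.05 and CIT2 at -0.22, while MDH2 stayed at 0.45. MLS1 passed the 2-fold line at -1.18, so 3 of the 10 genes were at least 2-fold lower. Over all genes, the 836 at least 2-fold higher and 661 lower became 604 higher and 869 lower. Counting any difference, 3329 genes were higher and 3307 lower as deposited, and 2559 higher and 4077 lower with equal summed FPKM, so most lists gain lower genes on that scale. Scaling to the same median FPKM lowered the differences by 0.088, and MLS1 then stood at -1.06. In the authors' deposited table of the whole series, PCK1 is joined with MLP1, PCC1 and YKR096W in 1 locus and FBP1 with PSY3, whereas the other 8 genes have a locus of their own. From those FPKM values MLS1 was also beyond 2-fold, at -1.01, and each of the 10 genes kept its direction. CIT2 stood at -0.056 with those values and at -0.0074 with the per-library FPKM, the latter within counting error.

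Several of the enzymes have isozymes in other compartments, and the ratio of 2 genes within 1 library does not depend on how the libraries are scaled. MDH2 had 0.605 times the FPKM of MDH1, the mitochondrial malate dehydrogenase, in BY4741 and 1.28 times in YHJ7. The order of cytosolic and mitochondrial malate dehydrogenase transcripts was thus reversed between the libraries. MDH1 itself was at 1956 FPKM in BY4741 and 1463 in YHJ7. The difference of the log2 ratio of MDH2 to MDH1, YHJ7 minus BY4741, was 1.08 (counting standard error 0.025). Against the peroxisomal gene MDH3, at 843 and 1080 FPKM, the ratio of MDH2 was 1.40 in BY4741 and 1.74 in YHJ7.

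IDP2 moved the other way against its mitochondrial isozyme. It had 5.56 times the FPKM of IDP1 in BY4741 and 2.36 times in YHJ7, so that the log2 ratio differed by -1.23 (counting standard error 0.039). IDP1 was at 251 FPKM in BY4741 and 392 in YHJ7, so the IDP2 and IDP1 values differed in opposite directions. Against the peroxisomal gene IDP3, at 68.6 and 84.4 FPKM, the ratio of IDP2 was 20.3 in BY4741 and 11.0 in YHJ7.

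CIT2 kept nearly the same relation to CIT1, the mitochondrial citrate synthase. The ratio was 1.47 in BY4741 and 1.32 in YHJ7, with CIT1 at 2264 and 2507 FPKM. CIT3, a further mitochondrial citrate synthase, was lower in YHJ7, at 718 FPKM in BY4741 and 423 in YHJ7, and the ratio of CIT2 to it was 4.63 in BY4741 and 7.82 in YHJ7. ICL1 exceeded ICL2, a mitochondrial 2-methylisocitrate lyase, 46.5-fold in BY4741 and 25.2-fold in YHJ7, with ICL2 at 161 and 184 FPKM. MLS1 exceeded DAL7, a malate synthase gene linked to allantoin use, 236-fold in BY4741 and 147-fold in YHJ7. DAL7 had 298 and 155 fragments, so its counting error is the widest of these. The coding sequences of the pairs were between 52.6% and 74.6% identical in the reference, and the longest run of identical bases in any pair was 23.

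**Figure D3:**
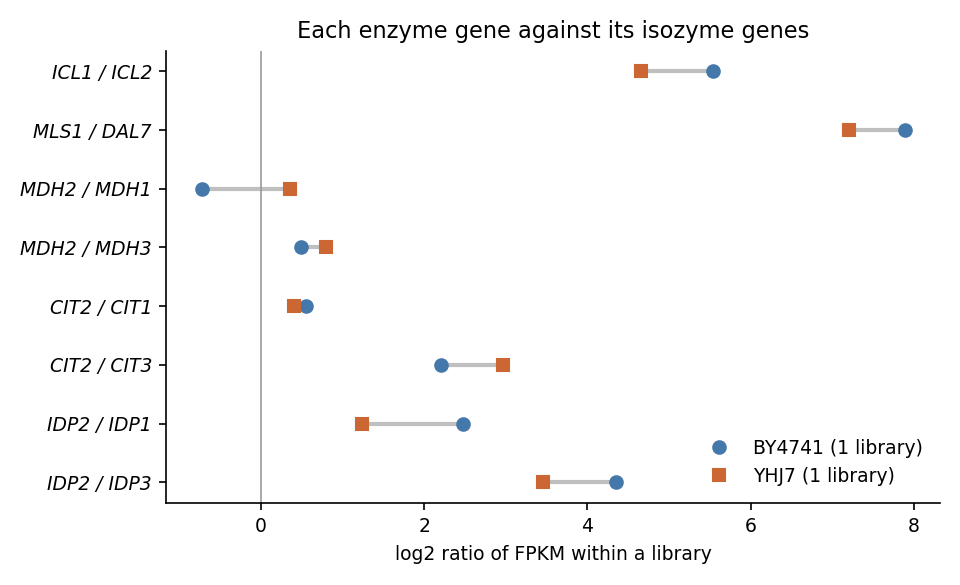
log2 ratio of the FPKM of each enzyme gene to that of an isozyme gene, within the BY4741 library (circles) and within the YHJ7 library (squares). MDH2 to MDH1 crosses 0, from a ratio of 0.605 to 1.28, whereas IDP2 to IDP1 narrows from 5.56 to 2.36 and CIT2 to CIT1 hardly moves.

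The gluconeogenic steps that are shared with glycolysis were also lower in YHJ7. Of 10 such genes, 9 were lower, where 3307 of all 6716 genes were. Only 1 of them was at least 2-fold lower, where 9.84% of all genes were. Their median difference was -0.50, beside -0.64 for the 10 genes described above and 0 for all genes. GPM1, phosphoglycerate mutase, was the gene beyond 2-fold, at 5660 FPKM in BY4741 and 1029 in YHJ7. With equal summed FPKM, PGK1, phosphoglycerate kinase, and ENO2, an enolase, were also beyond 2-fold, at -1.09 and -1.12. PGI1, glucose-6-phosphate isomerase, was the exception, at 763 and 846 FPKM, and it stood on the lower side, at -0.063, when summed FPKM was made equal. TDH1, TDH2 and TDH3 as well as ENO1 and ENO2 are similar copies, so the division of reads within these families is uncertain.

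The reactions that feed or leave the cycle stood mostly higher. Of 7 such genes, 6 were higher, where 3329 of all 6716 genes were. Only 1 of the 7 was at least 2-fold higher, where 12.4% of all genes were. The median difference of the 7 was 0.62. GOR1, a glyoxylate reductase that uses up the product of Icl1, was at 122 FPKM in BY4741 and 293 in YHJ7, 2.41-fold higher. ACO1, the aconitase that makes isocitrate, was at 1288 and 1978 FPKM, and PYC1, a pyruvate carboxylase that offers another route to oxaloacetate, at 629 and 864. FUM1, fumarase, which acts on the fumarate that Sfc1 exports, was the only lower gene of the 7, at 1324 and 1196 FPKM. AGX1, which converts glyoxylate into glycine, was at 1898 FPKM in BY4741 and 2164 in YHJ7, a difference of 0.19 that turned to -0.025 with equal summed FPKM, which left 5 of the 7 higher.

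Relatives of the transport genes differed from SFC1, JEN1 and ADY2 and among themselves. ATO2 and ATO3, relatives of ADY2, were both higher in YHJ7, where ADY2 was lower. ATO3 was at 289 FPKM in BY4741 and 743 in YHJ7, 2.57-fold higher, and ATO2 at 855 and 1071. The 6 mitochondrial carriers of the list were lower, where 3307 of all 6716 genes were lower, and 4077 with equal summed FPKM. CTP1 was within counting error, with a ratio of 0.826 (0.660 to 1.03). YHM2, a citrate and oxoglutarate carrier, was at 239 FPKM in BY4741 and 94.7 in YHJ7, 2.52-fold lower, from 2300 and 581 fragments. The study's genome comparison also lists a deletion in YHJ7, relative to the Japanese sake strain K7, that overlaps YHM2. Its bearing on the YHM2 value was not tested. ODC1, an oxodicarboxylate carrier, was at 1294 and 759 FPKM, and DIC1, the dicarboxylate carrier, at 165 and 101. ODC2, CTP1 and OAC1 reached at most 41.4 FPKM in either library, with differences from -0.58 for OAC1 to -0.27 for CTP1. In the whole-series table ODC1 shares a locus with RDS2 and YPL135C-A, and that locus was higher in YHJ7.

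Among the regulators, SIP4 was the only gene that was at least 2-fold different. Of all genes, 12.4% were at least 2-fold higher and 9.84% lower. The other regulators differed by at most 0.50 on the log2 scale, the value of HAP4. Of the 12 regulators, 7 were higher and 5 lower, with a median difference of 0.10. After scaling to equal summed FPKM 4 were higher and 8 lower, with a median of -0.11, a division close to that of all genes on that scale. SIP4, which binds the CSRE and is itself activated by Cat8, was at 22.9 FPKM in BY4741 and 58.3 in YHJ7, 2.55-fold higher, from 679 and 1101 fragments. CAT8 was at 33.5 and 30.6 FPKM and SNF1 at 56.7 and 63.5. MIG1 was at 60.8 and 57.3 FPKM and ADR1, a zinc finger activator of genes for ethanol use, at 108 and 121. OAF1 had the lowest difference of the list, -0.40. Transcript levels do not report the activity of these proteins, which for some of them, such as Snf1 and Mig1, is known to depend on phosphorylation.

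The GID ubiquitin ligase genes stood near 0 as a list, with a median difference of 0.011, 4 genes higher and 4 lower. With equal summed FPKM 3 were higher and 5 lower, again close to the division of all genes. VID24, also called GID4, encodes the subunit that recognises Fbp1, Icl1 and Mdh2. It was at 78.9 FPKM in BY4741 and 313 in YHJ7, 3.97-fold higher, from 908 and 2290 fragments. VID24 alone of these 8 was at least 2-fold different, where 12.4% of all genes were at least 2-fold higher and 9.84% lower. It remained more than 2-fold higher with equal summed FPKM, at a difference of 1.76, and in the whole-series table, at 81.6 and 319.6 FPKM. VID28, also called GID5, had the lowest difference of the list, at 48.6 and 27.5 FPKM, and it passed 2-fold lower with equal summed FPKM, at -1.01. The levels of the proteins that this ligase degrades were not measured.

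**Figure D4:**
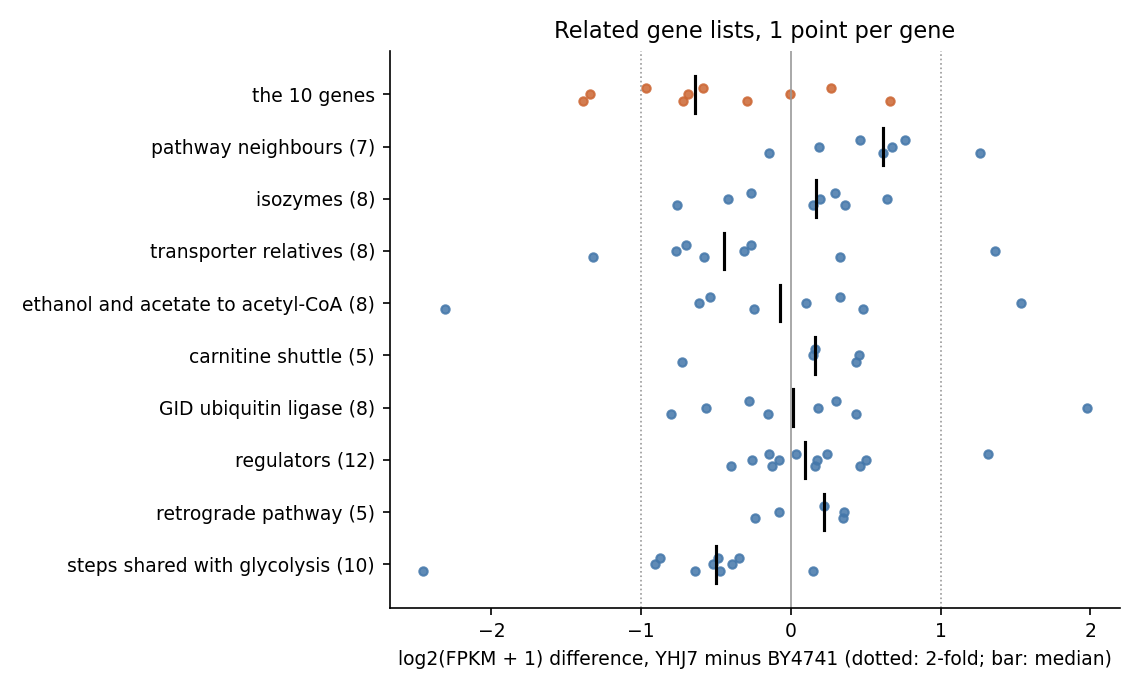
Difference in log2(FPKM + 1), YHJ7 minus BY4741, of each gene in 10 lists, with 1 point per gene, a bar at the median and dotted lines at 2-fold. The 10 genes and the steps shared with glycolysis have medians of -0.64 and -0.50, the pathway neighbours of 0.62, and VID24 is the point at 1.97 in the GID list.

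Among all genes, the 10 genes lay at the upper end of expression but not at an extreme of the difference. Ranked by difference from the lowest to the highest, SFC1 stood at percentile 6.08 of all genes, FBP1 at 6.49 and MLS1 at 10.3. MDH2 stood at percentile 80.4 and JEN1 at 64.7. The 7 genes with a match to the CSRE core in the window had ratios from 0.381 for SFC1 to 1.59 for MDH2. The 3 without a match had ratios of 0.395 for FBP1, 0.995 for CIT2 and 1.20 for JEN1. This split rests only on a letter pattern in the searched window of the reference. A gene without a match may still be controlled through the element, so the split does not separate controlled genes from others. Whether the element bears on the difference between the strains was not tested. The cultures were not sampled over time and the glucose left at harvest was not given in the sources used here, so growth state at harvest, a mixture of cells in different states and strain cannot be told apart.

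**Figure D5:**
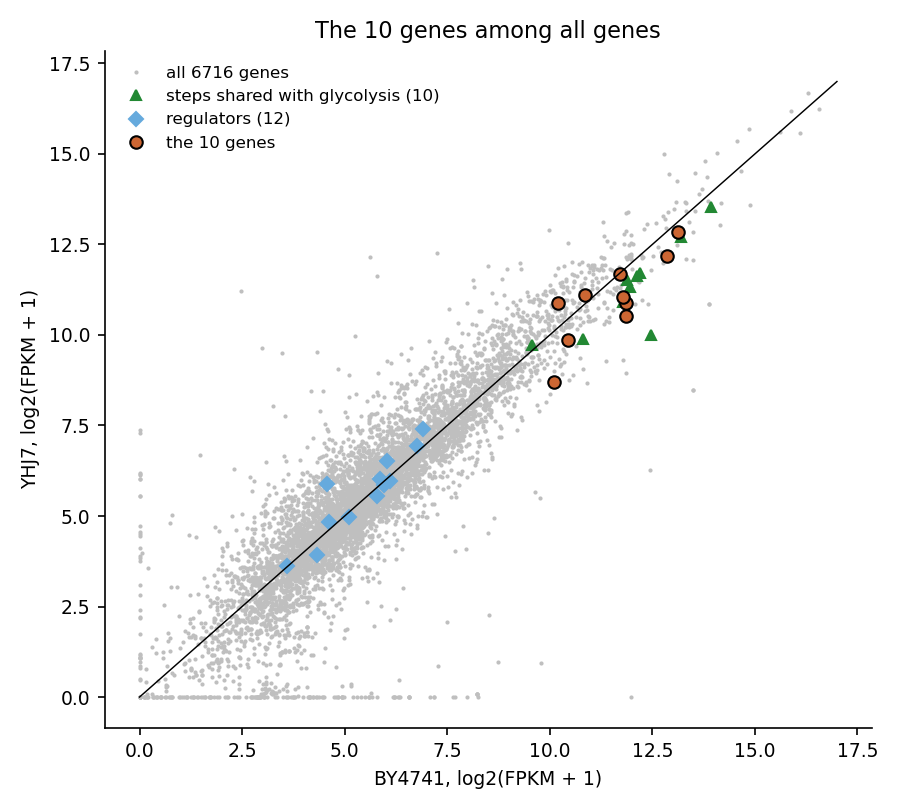
log2(FPKM + 1) in YHJ7 against BY4741 for all 6716 genes (grey), the 10 genes (circles), the 10 steps shared with glycolysis (triangles) and the 12 regulators (diamonds), with the line of equal values. The 10 genes lie in the upper part of the cloud, 7 of them below the line and CIT2 on it, while the regulators lie lower, within 0.50 of the line apart from SIP4 at 22.9 and 58.3 FPKM.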

How the data were processed

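Poly(A) RNA of YHJ7 and BY4741 was sequenced as 1 library per strain from pools of 2 biological replicates. Per the labels and methods, the authors aligned reads to sacCer3 using TopHat2 2.0.4 and quantified genes using Cufflinks 2.0.2. They deposited FPKM and a scaled count per gene, which is treated here as a signal because each library's fragments were divided by a factor. To recover fragments, candidate steps were compared by how many values under 1000 are whole multiples of them (within 0.02 of a step), and the largest step with a share within 0.1 of the best was used. This gave 0.797 for BY4741 (77.7% whole multiples) and 1.253 for YHJ7 (78.2%). Because many values are not whole, count models were not used. The row without a gene name held 0.806% and 0.309% of the signal and was left out. The authors' table of the whole series also holds fold changes, p-values and q-values, which were not used. Reads of YHJ7 that differ from S288c may map less well, which was not tested.

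Differences are log2(FPKM + 1), with a pseudocount of 1 FPKM, of YHJ7 minus BY4741. Intervals are exact Poisson intervals of fragments or exact conditional binomial intervals of their ratio, at 95%, and cover counting error only. The step search and the 2-fold calls were run on simulated counts with counting error only, whole multiples of a known step and 4-fold changes. That run cannot show how either fares with values that are not whole or with differences between cultures. The genes and lists were chosen with earlier results of these data known. The genes named are the 10, their isozymes and transporter relatives, and in the other lists the genes at least 2-fold different and those at either end. Other genes of those lists, named for their role, were picked after their values were seen. All coordinates count from 1, and the coding coordinates of all 10 genes matched RefSeq (R64). Identity of coding sequences came from global alignment. Python 3.11.15, NumPy 2.4.6, pandas 2.3.3, SciPy 1.17.1, Biopython 1.88 and matplotlib 3.10.9 were used.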

Additional observations from a re-analysis of the deposited data

How the results depend on the processing

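No paired analysis was possible because there is a single library of either strain, which also leaves no replicate to omit. The differences of all 10 genes kept their sign with a pseudocount of 0.1 FPKM and with the FPKM of the whole-series table. They also kept it with both libraries scaled to the same summed FPKM or the same median. The difference of CIT2 was within counting error as deposited. The median difference of the 10 genes was -0.68 with the whole-series table, -0.85 with the same summed FPKM and -0.73 with the same median. With the same median, 3 of the 10 genes were at least 2-fold lower. At 4-fold, 0 of the 10 genes were lower, and 184 of all genes were higher and 252 lower. With only genes at or above the mean FPKM of SFC1, a filter chosen after seeing the data, 108 genes were at least 2-fold higher and 31 lower.

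With the same summed FPKM, the list medians were 0.40 for the pathway neighbours, -0.66 for the transporter relatives, -0.29 for ethanol and acetate to acetyl-CoA, 0.0058 for the retrograde pathway and -0.72 for the steps shared with glycolysis. Those of the isozymes, at -0.044, the carnitine shuttle, at -0.051, the GID ligase, at -0.20, and the regulators, at -0.11, changed sign. With the same median FPKM they were 0.53 for the pathway neighbours, 0.082 for the isozymes, -0.16 for ethanol and acetate to acetyl-CoA, 0.075 for the carnitine shuttle, -0.59 for the steps shared with glycolysis and -0.076 for the GID ligase, which changed sign. With the whole-series table the medians were 0.57 for the pathway neighbours, -0.24 for the transporter relatives, -0.33 for ethanol and acetate to acetyl-CoA, 0.11 for the carnitine shuttle, 0.20 for the GID ligase and -0.57 for the steps shared with glycolysis. In that table some loci join several genes, and ODC2 and ADH2 stand in 2 loci each and were left out. The step of the highest share, 0.398 in BY4741 and 0.626 in YHJ7, would double the fragment numbers and narrow the counting intervals.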

Other observations

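Ethanol and acetate reach the glyoxylate cycle as acetyl-CoA, and the genes of that route did not differ together. Of 8 such genes, 4 were higher and 4 lower in YHJ7, with a median log2(FPKM + 1) difference of -0.073, and with equal summed FPKM 3 were higher and 5 lower, where 2559 of all genes were higher and 4077 lower. ALD4, the main mitochondrial aldehyde dehydrogenase, was at 1119 FPKM in BY4741 and 3244 in YHJ7, 2.90-fold higher, from 19707 and 36345 fragments. ALD5, a minor mitochondrial aldehyde dehydrogenase, was at 83.1 and 15.9 FPKM, 5.21-fold lower, from 1467 and 179 fragments. ADH2, the alcohol dehydrogenase that oxidises ethanol, was at 10196 and 10916 FPKM, and ACS1, the acetyl-CoA synthetase of growth without glucose, at 1516 and 1905.

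The carnitine shuttle carries acetyl units between peroxisome, cytosol and mitochondrion. None of its 5 genes was at least 2-fold different, where 12.4% of all genes were at least 2-fold higher and 9.84% lower. The median of the 5 was 0.16. YAT2, a cytosolic carnitine acetyltransferase, was the only lower gene, at 815 FPKM in BY4741 and 491 in YHJ7, although with equal summed FPKM YAT1 and CRC1 were also lower, at -0.067 and -0.051, while AGP2 had the highest difference, 0.46. The retrograde pathway, which acts on CIT2, had 0 of 5 genes at least 2-fold different, beside the same shares of all genes, and a median of 0.22. Its genes ran from -0.24 for RTG3 to 0.36 for DLD3, and CIT2 itself was at -0.0074.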
